A study of Mus musculus with 5 samples.

Results

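The 10 genes described here are 9 cathepsin genes, Ctsa, Ctsb, Ctsc, Ctsd, Ctse, Ctsh, Ctsl, Ctss and Ctsz, and the legumain gene Lgmn. They were taken by symbol from the 23234 gene symbols of each file, and all 10 were found in all 5 libraries. Each library is RNA-seq of cells sorted from the bone marrow (BM) of Ym1-Venus mice, which were C57BL/6 animals aged 7 weeks with 1 Ym1Venus allele (+/Ym1Venus), so that the fluorescent protein Venus reports the gene of Ym1. The monocytes were Ly6C+CD115+ cells and the neutrophils Ly6G+ cells. From mice that had received 100 µg of lipopolysaccharide (LPS, a bacterial cell wall product) intravenously 48 h before, 3 libraries were made: Ym1+Ly6Chi monocytes (Venus+), Ym1-Ly6Chi monocytes (Venus-) and neutrophils. From untreated mice, 2 libraries were made: naïve monocytes, also sorted as Venus-, and naïve neutrophils. There was 1 library per condition, and the sources used here do not give the number of mice behind each. No difference below therefore has a replicate check or a p-value, and each describes a pair of libraries.

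Cathepsins are proteases of the endosome and lysosome, the compartments in which phagocytes break down what they take up. Most are cysteine proteases of the papain family (Ctsb, Ctsc, Ctsh, Ctsl, Ctss, Ctsz), whereas Ctsd and Ctse encode aspartic proteases and Ctsa a serine carboxypeptidase. Legumain is a cysteine protease of another family that cuts after asparagine and helps to mature several cathepsin precursors. In myeloid cells, cathepsin S trims the invariant chain of MHC class II, and cathepsin C removes a dipeptide from the precursors of neutrophil elastase, proteinase 3 and cathepsin G and thereby activates them.

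Levels are FPKM, the fragments per kilobase of transcript scaled to the total of the library, as the authors deposited them. This scale is per length, so levels of different genes can be set side by side. Differences are of log2(FPKM + 1), which understates the change of low genes, and a gene was counted as higher or lower when it was at least 2-fold apart on that scale. Folds are ratios of FPKM. From the steps between the lowest values, an FPKM of 10 on a 2 kb transcript stands for an estimated 93.3 fragments in the Ym1- library, the shallowest, and up to 209 in the Ym1+ library. Each 95% interval given is an estimated counting interval from this depth and covers counting error only. In bulk libraries, fewer cells of a type and less RNA per cell cannot be told apart. All 10 monocyte markers had an FPKM of at least 1 in the 3 monocyte libraries, and all 12 neutrophil markers summed to 305126 and 310300 in the neutrophil libraries against 1349 to 15949 in the monocyte libraries. Ly6g, the gene of the neutrophil sort marker, is not among the symbols analysed here. The median over all genes compared was -0.79 between naïve neutrophils and naïve monocytes. S100a8 and S100a9 took 30.0% of all FPKM in naïve neutrophils and 0.172% in naïve monocytes, and median-of-ratios scaling moved the differences of that pair by 0.70, which is given below where it changes a count.

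The windows just before the transcription start are shown for Ctsc, Ctss and Ctsd. Ctss and Ctsc had the widest gaps between the naïve libraries, Ctsc the largest LPS difference in each lineage, and Ctsd the largest share in neutrophils. Each window is 250 bases long and ends at the base before the start, as RefSeq gives it for the assembly GRCm38.p6. The FPKM were made on another build, mm9, so the windows were matched by symbol. They lie at chr7:88277835-88278084 on the plus strand for Ctsc, chr3:95526536-95526785 on the plus strand for Ctss and chr7:142387828-142388077 on the minus strand for Ctsd, and each is printed 5′ to 3′ on its gene's strand. Capitals mark matches to the 5 motifs described next.
Ctsc: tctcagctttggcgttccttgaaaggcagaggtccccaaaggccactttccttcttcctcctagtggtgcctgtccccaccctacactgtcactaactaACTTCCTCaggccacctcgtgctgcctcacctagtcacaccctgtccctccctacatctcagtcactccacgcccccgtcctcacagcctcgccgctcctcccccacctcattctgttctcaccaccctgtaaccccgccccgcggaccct
Ctss: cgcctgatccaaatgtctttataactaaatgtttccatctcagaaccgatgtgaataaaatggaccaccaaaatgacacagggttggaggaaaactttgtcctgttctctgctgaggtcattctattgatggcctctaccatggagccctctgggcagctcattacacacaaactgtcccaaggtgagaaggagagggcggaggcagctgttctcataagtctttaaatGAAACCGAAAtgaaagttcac
Ctsd: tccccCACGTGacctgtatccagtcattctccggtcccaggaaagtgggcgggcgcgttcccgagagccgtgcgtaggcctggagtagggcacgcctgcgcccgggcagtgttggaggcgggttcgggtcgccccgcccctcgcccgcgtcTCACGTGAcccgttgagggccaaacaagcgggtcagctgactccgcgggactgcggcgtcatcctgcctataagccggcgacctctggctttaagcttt

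Windows were found for 7 of the 10 members, namely Ctsa, Ctsc, Ctsd, Ctsl, Ctss, Ctsz and Lgmn, and not for Ctsb, Ctse and Ctsh. Ctsa and Lgmn have more than 1 start, which gives 9 windows. CACGTG, the E-box core that the lysosomal regulator TFEB and its relatives can bind, was found in 4 windows, of Ctsa, Ctsd, Ctsl and Lgmn, and in 6.02% of all 32851 windows of this length. Ctsa and Lgmn each held it at 1 start and not at the other. The longer TCACGTGA, which contains that core, was found in Ctsa and Ctsd and in 0.785% of all windows. Ctsd holds CACGTG at 245 and again at 98 bases before the start. Among the 7 members with a window, Ctsc alone held GAGGAAGT, a form bound by the myeloid factor PU.1. It lies on the opposite strand at 151 bases before the start, so that it is printed as ACTTCCTC, and 2.44% of all windows hold it. Ctss alone of these 7 held GAAA, any 2 bases and GAAA again, a repeat that interferon regulatory factors can bind. It lies at 21 bases before the start, and 2.98% of all windows hold this repeat. An NF-κB form, GGGA, any base and TTTCC, was in none of the 9 windows and in 0.356% of all. Both strands were searched. A match describes the letters and is no evidence of binding in these cells.

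**Figure D1:**
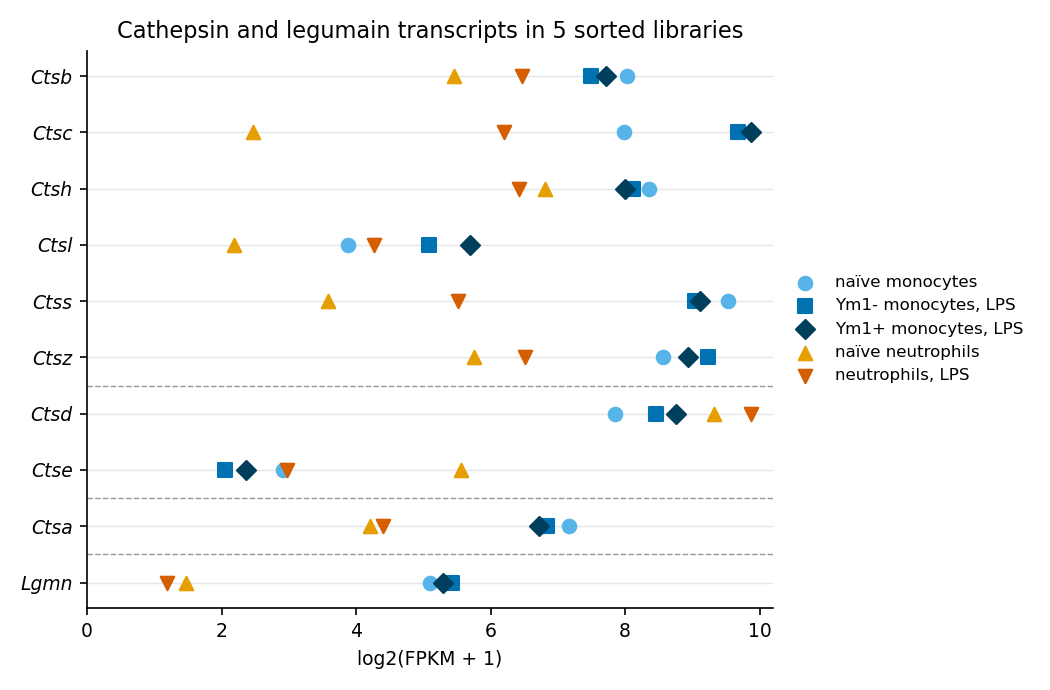
Each of the 10 genes has a row, and its log2(FPKM + 1) in each of the 5 libraries is a point along the horizontal axis, with dashed lines between cysteine cathepsins, aspartic cathepsins, Ctsa and Lgmn. For 7 genes both neutrophil points lie left of all 3 monocyte points, while both Ctsd points of neutrophils lie right of all monocyte points.

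The monocyte libraries held more cathepsin transcript than the neutrophil libraries, and they held it in different genes. The FPKM of the 10 genes summed to 2382 in naïve monocytes, 2944 in the Ym1- and 3074 in the Ym1+ library, against 932 in naïve neutrophils and 1367 in neutrophils after LPS. This is 0.444% to 0.557% of all FPKM in the monocyte libraries and 0.131% and 0.176% in the neutrophil libraries. In neutrophils a single gene, Ctsd, made up 68.7% of the sum without LPS and 68.8% after it. Without Ctsd, the sum was 291 and 426 in the neutrophil libraries and between 2152 and 2643 in the monocyte libraries. In naïve monocytes the leading gene was Ctss with 31.1% of the sum, followed by Ctsz with 15.9% and Ctsh with 13.7%. After LPS the leading monocyte gene was Ctsc, with 27.7% of the sum in Ym1- and 30.6% in Ym1+ monocytes, against 10.5% in naïve monocytes. Ctse, Ctsl and Lgmn were the lowest 3 members in every monocyte library.

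**Figure D2:**
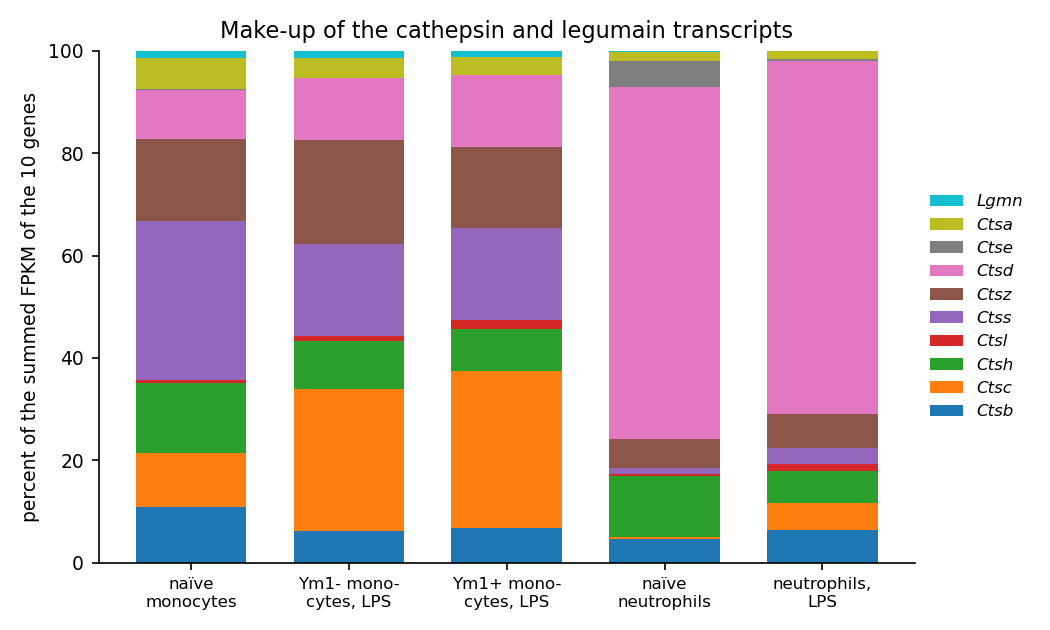
Share of each gene in the summed FPKM of the 10 genes (vertical axis, percent) for the 5 libraries, 1 bar per library. Ctsd fills 68.7% and 68.8% of the neutrophil bars, and Ctsc widens from 10.5% in naïve monocytes to 27.7% and 30.6% in the monocytes after LPS.

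Between naïve neutrophils and naïve monocytes, 8 of the 10 genes were lower in neutrophils and 2 were higher, where 42.7% of the 10944 genes compared were lower and 10.8% higher. The median difference of the 10 genes was -2.70, against the median of -0.79 over all genes. With median-of-ratios scaling 7 were lower, Ctsh no longer reaching the threshold at -0.84, and 2 were higher. Under that scaling the share of higher genes among all genes past the threshold went from 20.2% to 42.6%.

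Ctss and Ctsc showed the widest gaps of the 10 genes between the naïve libraries, whereas after LPS the widest was that of Lgmn, 33.1-fold against 11.8-fold for Ctss and 11.2-fold for Ctsc. Ctss, the gene of the class II-associated cathepsin S, had an FPKM of 739.7 in naïve monocytes and 11.0 in naïve neutrophils, a 67.2-fold difference (95% interval 56.5 to 80.7). After LPS its FPKM was 528 in Ym1- and 552 in Ym1+ monocytes and 44.6 in neutrophils, so all 3 monocyte libraries lay above both neutrophil libraries. Ctsc had 251 in naïve monocytes and 4.50 in naïve neutrophils, a 55.8-fold difference (interval 45.9 to 68.4). Only 0.365% of all genes compared were as far below monocytes as Ctss, and 0.503% as far as Ctsc. Lgmn, the legumain gene, was close to the lower limit in neutrophils, with an FPKM of 1.76 (interval 1.21 to 2.49) in naïve and 1.27 (0.769 to 1.98) in LPS neutrophils. In monocytes it had 33.3 in naïve, 42.1 in Ym1- and 38.4 in Ym1+ cells, so the libraries of each lineage lay close together. The intervals of the neutrophil values overlap, and so do those of the Ym1- and Ym1+ values. Those of the naïve (30.1 to 36.8) and Ym1- monocyte values (37.8 to 46.7) do not.

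Ctsa and the other cysteine cathepsin genes were lower in naïve neutrophils by smaller factors. Ctsa, whose product also protects the enzymes neuraminidase 1 and β-galactosidase in the lysosome, had 143 in naïve monocytes and 17.4 in naïve neutrophils, an 8.21-fold difference (7.39 to 9.14). Ctsz, which encodes the carboxypeptidase cathepsin X, had 379 and 52.8, a 7.19-fold difference (6.61 to 7.83). Ctsb, the gene of a broadly expressed endopeptidase that also trims C-termini, had 261 and 42.8, which is 6.09-fold (5.80 to 6.41). Ctsh, the gene of an aminopeptidase, was the second most abundant member in naïve neutrophils at 111, and naïve monocytes had 326, a 2.93-fold difference (2.76 to 3.11). Ctsl, an endopeptidase gene, had low levels in both, 13.7 and 3.56, a 3.85-fold difference (2.86 to 5.23).

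Both aspartic cathepsin genes went the other way. Ctsd, the gene of the main aspartic protease of lysosomes, had an FPKM of 641 in naïve neutrophils and 229 in naïve monocytes, a 2.80-fold difference (2.69 to 2.91). In the libraries after LPS Ctsd had 941 in neutrophils, 352 in Ym1- and 430.5 in Ym1+ monocytes, so that the lowest neutrophil value lay above the highest monocyte value. Ctse, the gene of the endosomal cathepsin E, had 46.4 in naïve neutrophils and 6.51 in naïve monocytes, a 7.13-fold difference (5.69 to 9.05). Within a library, where scaling plays no part, the ratio of Ctsd to Ctss was 58.2 in naïve neutrophils and 0.310 in naïve monocytes. After LPS it was 21.1 in neutrophils, 0.667 in Ym1- and 0.779 in Ym1+ monocytes.

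Between the lineages after LPS, neutrophils against Ym1- monocytes, 7 of the 10 genes were lower and 1, Ctsd, was higher, where 40.8% of 10676 genes were lower and 11.0% higher. The median of the 10 genes was -2.07 and that of all genes -0.74. Ctsb, Ctse and Ctsl lay near the threshold in this pair, at -1.04, 0.93 and -0.82. With median-of-ratios scaling 2 genes were higher, Ctse (1.45) being the added one, and 6 lower, Ctsb being at -0.40. The share of higher genes among all past the threshold was 21.2% and, with that scaling, 43.3%. After rescaling to TPM, no member was higher, Ctsd being at 0.97, and 8 were lower, Ctsl (-1.27) being the added one.

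**Figure D3:**
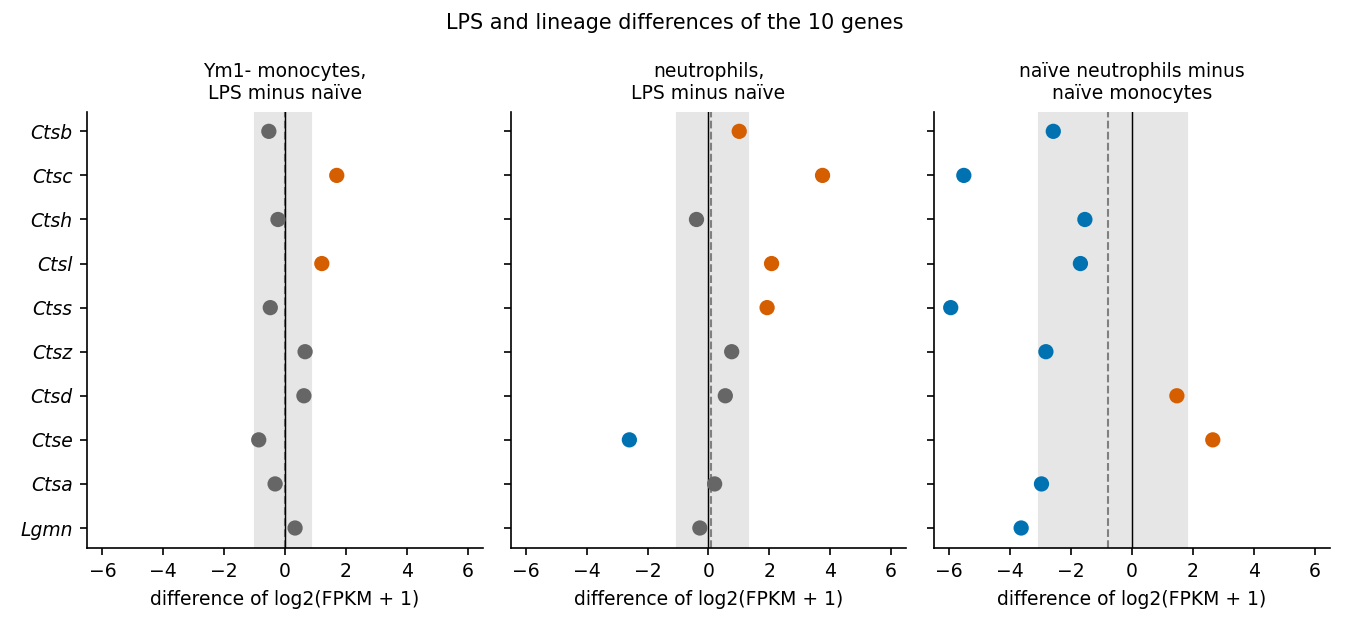
Difference of log2(FPKM + 1) on the horizontal axis for the 10 genes in 3 pairs of libraries, 1 library per condition. Orange points are at least 2-fold higher, blue points at least 2-fold lower and grey points neither. The grey band holds the central part of all genes compared, from the 5th to the 95th percentile, the dashed line is their median, and Ctsc lies outside the band in all 3 pairs (1.70, 3.75 and -5.52).

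LPS went with higher Ctsc and Ctsl in both lineages. In neutrophils, 4 of the 10 genes were higher after LPS (Ctsb, Ctsc, Ctsl and Ctss) and 1, Ctse, was lower, where 8.96% of 9583 genes were higher and 5.35% lower. The median of the 10 genes was 0.66, against 0.07 over all genes. In Ym1- monocytes against naïve monocytes, which were both sorted as Venus-, 2 genes were higher (Ctsc and Ctsl) and none was lower, where 2.86% of 10714 genes were higher and 4.72% lower. The median of the 10 genes was 0.05 and that of all genes -0.00. In Ym1+ monocytes against naïve monocytes, where the Venus gate changes along with LPS, Ctsc and Ctsl were again the 2 higher genes and none was lower, where 2.59% of 10698 genes were higher and 4.51% lower. Here the median was -0.06, equal to that of all genes. Both monocyte comparisons share the naïve library, and the neutrophil comparison shares none with them.

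Ctsc had the largest LPS difference of the 10 genes in each of these 3 pairs. Its FPKM was 4.50 in naïve neutrophils and 72.9 in neutrophils after LPS, which is 16.2-fold (13.3 to 19.9) and a log2 difference of 3.75 that 0.323% of all genes reached. In monocytes it was 251 without LPS, 817 in Ym1- cells and 941 in Ym1+ cells, which is 3.25-fold (3.13 to 3.38) and 3.75-fold (3.62 to 3.88). The order of the levels was the same within each lineage, naïve below LPS, and even the highest neutrophil value stayed below the lowest monocyte value. In both monocyte libraries after LPS Ctsc was the most abundant member, and only 0.847% of expressed genes were above it in Ym1+ monocytes. In naïve neutrophils it was eighth, with 70.2% of expressed genes above it.

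Ctsl had an FPKM of 3.56 in naïve and 18.2 in LPS neutrophils, 5.11-fold (3.88 to 6.82). In monocytes it had 13.7 without LPS, 32.9 in Ym1- and 50.5 in Ym1+ cells, 2.40-fold (1.97 to 2.94) and 3.69-fold (3.12 to 4.40) above the naïve library. Neutrophils after LPS thus lay above naïve monocytes for this gene and for Ctsd, and for no other member except Ctse, at 6.84 against 6.51, whose intervals overlap.

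For Ctss and Ctsb the LPS difference had opposite signs in the lineages. Ctss was 4.05-fold higher (3.32 to 4.97) in neutrophils after LPS, at 44.6 against 11.0, while in monocytes it was 1.40-fold (1.34 to 1.47) and 1.34-fold (1.29 to 1.39) below the naïve level of 739.7. Ctsb was 2.04-fold higher (1.93 to 2.16) in LPS neutrophils, at 87.2 against 42.8. Its log2 difference of 1.01 lies at the threshold and was 0.96 with median-of-ratios scaling. In monocytes Ctsb was 261 without LPS, 179.9 in Ym1- and 209 in Ym1+ cells, below the naïve library in both.

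Ctse was the 1 member at least 2-fold lower after LPS, and this was in the neutrophil pair. Its FPKM was 46.4 in naïve neutrophils and 6.84 in neutrophils after LPS, a 6.79-fold difference (5.57 to 8.34), and 0.334% of all genes were as far down. Neutrophils after LPS lay at the level of naïve monocytes for this gene. In monocytes it had 6.51 without LPS, 3.12 in Ym1- and 4.14 in Ym1+ cells, with a log2 difference of -0.86 for Ym1- that passed the threshold with a pseudocount of 0.1 (-1.04) and after rescaling to TPM (-1.01). Its ratio to Ctsd, the other aspartic cathepsin, shifted accordingly: Ctsd was 13.8 times Ctse in naïve neutrophils and 138 times in LPS neutrophils.

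The other members differed less with LPS. Ctsd was 1.47-fold higher in neutrophils, 1.54-fold in Ym1- and 1.88-fold in Ym1+ monocytes. Ctsz was 1.71-fold, 1.58-fold and 1.29-fold higher in the same pairs. Ctsh was lower in all 3, by 1.32-fold, 1.18-fold and 1.28-fold. Ctsa was 1.16-fold higher in neutrophils and 1.26-fold and 1.37-fold lower in monocytes, and Lgmn was within 1.39-fold in each pair. None of these reached the threshold, and with 1 library per condition their spread between animals is unknown.

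Markers of other cells moved with these differences as follows. Over all genes compared in neutrophils, 8.96% were higher and 5.35% lower after LPS. Of the 10 monocyte markers, 7 were expressed in a neutrophil library, F13a1 and Cd14 being higher after LPS and Csf1r lower, with summed FPKM of 2009 after and 1715 without LPS. In neutrophils after LPS, Ctsc reached 8.92% and Ctss 8.45% of their level in Ym1- monocytes. On the same measure the 10 monocyte markers ranged from 0.237% to 181%. Ccr2, Irf8, Klf4 and Cx3cr1 stood at 0.237% to 0.391%, F13a1 at 1.66% and Fcgr1 at 3.38%. Csf1r, at 7.08%, was close to Ctsc and Ctss, and Ly6c2 (50.8%), Ly6c1 (51.2%) and Cd14 (181%) were above them. The part of monocyte RNA in the neutrophil values was not tested. Of 10 macrophage markers compared in neutrophils, none was higher after LPS and 4 were lower (C1qa, C1qb, C1qc and Vcam1), with sums of 92.9 after and 87.7 without LPS. Platelet markers were lower for 4 of 5 genes in neutrophils after LPS, among them Ppbp at 0.539 against 27.3 and Pf4 at 0.922 against 16.9, with sums of 5.97 after and 54.5 without LPS. Against naïve monocytes, where the list summed to 12.2, all 5 were higher in the naïve neutrophil library, beside 10.8% of all genes. Erythroid markers were lower after LPS in neutrophils for both genes compared, with sums of 7.21 after and 25.3 without LPS. Of 10 macrophage markers, 5 were higher and 2 lower in naïve neutrophils than in naïve monocytes, beside 10.8% and 42.7% of all genes. The 5 include the 4 that were lower after LPS. Ctse was lower and higher in the same pairs as the platelet list and those 4 macrophage genes. Itgax, Prg2 and Cd3d, from further marker lists, did so too, while Flt3, Cd209a and Nkg7 of these lists were lower in naïve neutrophils. The part of any of these lists in the Ctse values was not tested. In monocytes, 2.86% of all genes were higher in Ym1- and 2.59% in Ym1+ cells against naïve cells. The macrophage list was higher for 3 of 8 genes and 7 of 10 in the same pairs, with none lower. Its sum was 99.6 in naïve monocytes, 131 in Ym1- cells and 243 in Ym1+ cells, with Cd5l at 0 in Ym1- monocytes. Eosinophil and basophil markers were higher for 2 of 4 genes in Ym1- cells (Prg2 and Epx) and 0 of 2 in Ym1+ cells, with none lower. They summed to 4.52 in naïve monocytes, 32.2 in Ym1- cells and 1.31 in Ym1+ cells. The part of either list in the Ctsc and Ctsl differences was not tested. The summed neutrophil markers were 1349, 2382 and 15949 in the same order, and their part in the level of Ctsd was not tested.

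Ym1+ and Ym1- monocytes after LPS did not differ 2-fold in any of the 10 genes, against a background of 1.38% higher and 1.18% lower among the 10489 genes compared. The median of the 10 genes was 0.14, against -0.06 for all genes. The largest difference was that of Ctsl, 50.5 against 32.9, which is 1.54-fold (1.34 to 1.76) and beyond the 95th percentile of all genes, at 0.60 against 0.54. Ctsd was 1.22-fold (1.17 to 1.27) and Ctsc 1.15-fold (1.12 to 1.18) higher in Ym1+ cells, and Ctsz was 1.22-fold lower (1.17 to 1.28). Ctss, at 552 against 528, was 1.05-fold higher.

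Cathepsin C was next set beside the granule serine proteases it activates. Of 8 such genes, 5 were expressed. Elane (neutrophil elastase) had FPKM of 13.7 and 173 in naïve and LPS neutrophils, Prtn3 (proteinase 3) had 11.5 and 326, and Ctsg (cathepsin G) had 2.95 and 59.0. All 3 were higher after LPS in neutrophils, by 12.6-fold, 28.3-fold and 20.0-fold, beside the 16.2-fold of Ctsc. Of all genes compared in that pair, 8.96% were higher. In monocytes none of the 3 was higher after LPS, while Ctsc was. Elane was 609 in naïve monocytes, 268 in Ym1- cells and 312 in Ym1+ cells, and thus lower in the Ym1- library. Prtn3 had 628, 801 and 675, and Ctsg had 284, 382 and 237, all within 2-fold of the naïve library. The ratio of Ctsc to Elane was 0.328 in naïve and 0.421 in LPS neutrophils and 0.412 in naïve monocytes, but 3.05 in Ym1- and 3.01 in Ym1+ monocytes. The ratio of Ctsc to Prtn3 was lower in LPS than in naïve neutrophils, 0.223 against 0.390, and in monocytes it was 0.400 without LPS, 1.02 in Ym1- and 1.39 in Ym1+ cells. The ratio of Ctsc to Ctsg was likewise 1.23 against 1.52 in neutrophils, and 0.882, 2.14 and 3.97 in the monocyte libraries in that order. Prss57 and Mcpt8 did not reach the threshold in these LPS pairs, and Gzma, Gzmb and Cma1 are listed at 0 in every library. Of 2 stem and progenitor markers expressed in neutrophils, Kit was lower after LPS (2.57 against 7.00) and the list summed to 8.76 after and 18.4 without LPS. Against naïve monocytes, 3 of 4 expressed markers of that list were lower in Ym1- cells and 4 of 4 in Ym1+ cells, with none higher. Of all genes, 4.72% and 4.51% were lower in these pairs. The list summed to 51.6 in naïve monocytes, 23.2 in Ym1- cells and 11.2 in Ym1+ cells. The part of these markers in the neutrophil and monocyte differences was not tested.

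**Figure D4:**
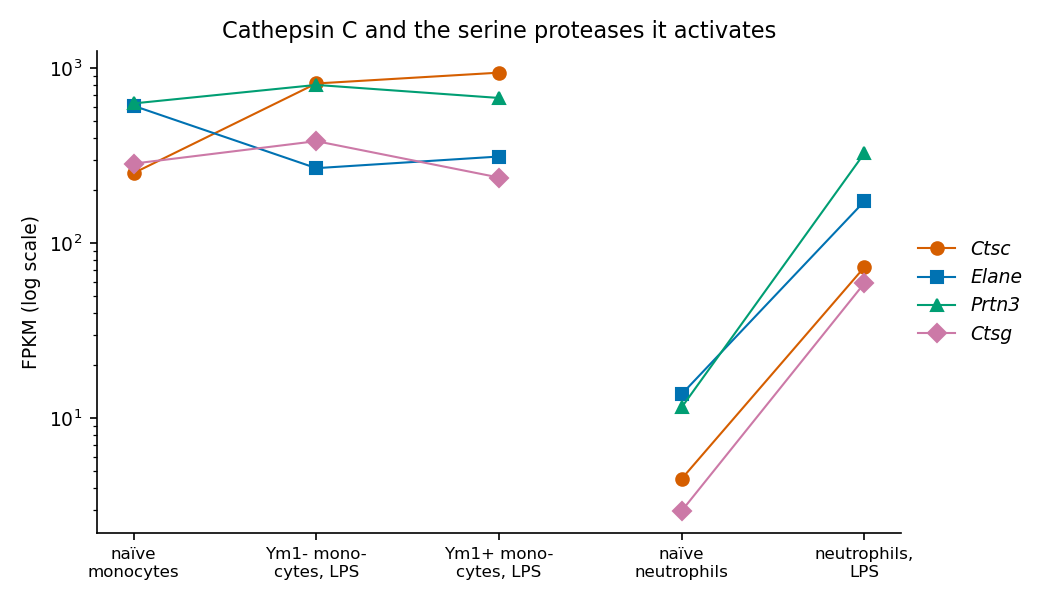
FPKM of Ctsc and of Elane, Prtn3 and Ctsg on a log scale in the 5 libraries, 1 point per library, with lines joining libraries of a lineage only to guide the eye. All 4 genes are higher in neutrophils after LPS, while in monocytes Ctsc goes from 251 to 817 and 941 and Elane from 609 to 268 and 312.

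Genes of cathepsin inhibitors split by lineage, and the list holds serpin genes beside those of cystatins and stefins. Cst7, the gene of cystatin F, an inhibitor that acts on cathepsin C inside cells, had 0.879 in naïve and 17.7 in LPS neutrophils, a 20.1-fold difference (9.46 to 51.0). In monocytes it stayed between 29.4 and 38.8. Cst3, the gene of the secreted cystatin C, was highest in naïve monocytes at 1543 and had 432 and 336 in naïve and LPS neutrophils. Cstb (stefin B) lay between 93.2 and 145 in monocytes and had 40.4 and 79.8 in neutrophils. Of 11 expressed inhibitor genes, 7 were higher and none lower in neutrophils after LPS, where 8.96% of all genes were higher and 5.35% lower. Of the 7, 6 are the stefin A genes and their relatives BC100530 and BC117090, near-identical copies whose separate values are uncertain. In Ym1+ against Ym1- monocytes the same stefin group accounts for all 6 of the 11 that were higher, beside 1.38% of all genes. None was lower, beside 1.18%. In that pair 10 of 12 neutrophil markers were higher too, and their part in the stefin values was not tested. In Ym1- against naïve monocytes 1 was higher and none lower, beside 2.86% and 4.72% of all genes. In naïve neutrophils against naïve monocytes 8 were higher and 3 lower, beside 10.8% and 42.7% of all genes. The 8 are the stefin group and the serpin genes Serpinb1a and Serpinb6a, and the 3 are Cst3, Cst7 and Cstb. Serpinb1a, which encodes an inhibitor of elastase and cathepsin G, had 519 in LPS and 266 in naïve neutrophils and at most 87.2 in monocytes.

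The remaining genes of the cathepsin family were mostly silent. Of 13 others, only Ctsg and Ctso reached an FPKM of 1, Ctso lying between 2.30 and 5.15 in all 5 libraries. Ctsk, the collagen-degrading cathepsin of osteoclasts, had at most 0.373. Ctsw, Ctsj, Ctsm, Ctsq, Ctsr, Cts3, Cts6 and Cts7 are listed at 0 throughout. Of the partners of cathepsin A and the sphingolipid activators, none of 6 differed 2-fold with LPS in neutrophils or in Ym1- monocytes, and in naïve neutrophils 3 were lower and 1, Neu1, higher than in naïve monocytes, shares near the 42.7% and 10.8% over all genes. Psap, the gene of the saposin precursor, had 3239.7 in naïve monocytes and 468 in naïve neutrophils. Other lysosomal peptidase genes were lower in naïve neutrophils for 6 of 7 and higher for none, beside the same 42.7% and 10.8%, for example Scpep1 at 0.157 against 78.7. Napsa, which encodes napsin A, an aspartic protease related to cathepsin D, had 124 in LPS and 50.7 in naïve neutrophils. It was the 1 gene of 6 that was higher in that pair, beside 8.96% of all genes.

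MHC class II genes, whose chaperone Cd74 is cut by cathepsin S, were lower after LPS in libraries where Ctss was within 1.40-fold of the naïve level. In Ym1- against naïve monocytes, 4 of 7 class II genes were lower, and in Ym1+ monocytes 6 of 7, with none higher, where 4.72% and 4.51% of all genes were lower. Cd74 had 117 in naïve monocytes, 45.9 in Ym1- cells and 13.4 in Ym1+ cells, and the ratio of Ctss to Cd74 was 6.33, 11.5 and 41.3 in the same order. Of 3 expressed dendritic cell markers 2 were lower in Ym1- and 3 in Ym1+ monocytes, with sums of 20.4, 4.48 and 1.04. Their part in the class II differences was not tested.

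The genes of most similar pattern were searched among the 7037 genes that reached an FPKM of 10 in some library and were above 0 in all, by the root mean square difference of centred log2(FPKM + 1) over the 5 libraries. Most members had near matches, such as Atp13a3 for Ctsh at 0.04, Surf2 for Ctsa at 0.04 and Nup85 for Ctsz at 0.06. The next were H1f0 for Ctsb at 0.06, 5830416P10Rik for Ctse at 0.07, Tubb2a for Lgmn at 0.09 and Tbrg1 for Ctsd at 0.09. The nearest genes were farther for Ctss (Fbl, 0.29), Ctsl (P4hb, 0.30) and Ctsc (Nme2, 0.54). With 5 libraries such likeness describes these values only.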

How the data were processed

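RNA-seq of 5 sorted bone marrow populations was analysed, 1 library per condition, with conditions taken from the sample labels. RNA was converted into strand-specific libraries per the labels. For every gene symbol the deposited value is an FPKM, made by the authors. Reads were processed on mm9 with the tools TopHat2 (2.0.8) and Cufflinks (2.1.1), as listed by the submitters in their processing notes. Their options and annotation: not given in the sources used here. Because FPKM is already scaled by length and depth, no count model was used.

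Differences of log2(FPKM + 1) were computed with Python 3.11.15 (numpy 2.4.6, pandas 2.3.3) for 6 library pairs, each over the genes that reached an FPKM of 1 on either side, and those at least 2-fold apart were counted. No test is possible with 1 library per condition. Depth was estimated from the most frequent low value of 3421 genes with 1 protein-coding GENCODE transcript of 1500 to 5000 nt, taken as 1 fragment, after subtracting 200 nt from the length. In each library 56.8% to 58.4% of low values lay within 0.1 of a whole number of fragments. Poisson and Clopper-Pearson intervals (95%, scipy 1.17.1) rest on this estimate and on the shortest RefSeq-matched transcript. The steps were tested on simulated data. The members and lists were chosen with earlier results of these data known. Named genes were the members, any gene of the lists of other cathepsins, inhibitors, serine proteases and cathepsin A partners, genes of the further lists that were past the fold, and the nearest 2 genes in pattern of each member. Alternatives were a pseudocount of 0.1, other filters, TPM, median-of-ratios scaling, a 4-fold threshold and Ym1+ monocytes as reference.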

Additional observations from a re-analysis of the deposited data

Results flagged for a closer look

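For 4 genes the LPS difference had opposite signs in the neutrophil pair and in both monocyte pairs. As each condition has 1 library, the contrast between lineages was not tested. For Ctss, the log2 difference in neutrophils exceeded that in Ym1- monocytes by 2.41 (1.93 against -0.49, with -0.42 in Ym1+ monocytes). For Ctsb the gap was 1.54 (1.01 against -0.53, with -0.32 in Ym1+ monocytes). For Ctsa the gap was 0.53 (0.20 against -0.33), and the counting interval of its neutrophil fold runs from 1.01 to 1.33. After rescaling to TPM the neutrophil difference of Ctsa was 0.09. For Lgmn the gap was -0.61 (-0.28 against 0.33), and the counting interval of its neutrophil fold runs from 0.388 to 1.31. With median-of-ratios scaling the gaps were 2.37 for Ctss, 1.48 for Ctsb, 0.47 for Ctsa and -0.69 for Lgmn.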

How the results depend on the processing

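Of 60 differences, 10 genes in 6 pairs, all kept their sign with a pseudocount of 0.1, after rescaling to TPM and with median-of-ratios scaling. Their side of the 2-fold threshold changed for 2, 4 and 4 of them. At a 4-fold threshold the count of higher members was 0 rather than 2 in Ym1- and in Ym1+ monocytes against naïve monocytes, 2 rather than 4 in neutrophils after LPS against naïve neutrophils, 1 rather than 2 in naïve neutrophils against naïve monocytes and 0 rather than 1 in neutrophils against Ym1- monocytes after LPS. In that last pair the count was also 2 with a pseudocount of 0.1, 2 with median-of-ratios scaling and 0 after rescaling to TPM, and with Ym1+ monocytes as the reference 1 was higher and 8 lower. The count of lower members in Ym1- against naïve monocytes was 1 rather than 0 with a pseudocount of 0.1 and after rescaling to TPM, the gene being Ctse. The other counts stayed within 1.5 times under each alternative, the filters included. No paired analysis was possible because each condition has 1 library, and no library could be left out for the same reason. Depth limits the low members most, with an estimated 19.2 fragments for Lgmn in LPS neutrophils, 28.1 for Ctse in Ym1- monocytes and 32.1 for Lgmn in naïve neutrophils.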

Other observations

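Genes that deliver enzymes to the lysosome and genes of its membrane were past the threshold between naïve neutrophils and naïve monocytes about as often as all genes compared, of which 42.7% were lower and 10.8% higher. Of 10 genes of lysosomal sorting and transcription, naïve neutrophils had lower levels of 5 and a higher level of 1 than naïve monocytes. M6pr, the gene of the smaller mannose 6-phosphate receptor, had an FPKM of 179.6 in naïve monocytes and 29.1 in naïve neutrophils, while Igf2r, the gene of the larger receptor, had 0.0697 and 9.72. None of the 10 differed 2-fold after LPS in neutrophils, and none of 9 expressed in monocytes did in Ym1- cells. Of 8 lysosomal membrane genes, Cd63 was the 1 that was higher in naïve neutrophils, at 326 against 7.11, and 3 were lower, likewise near the shares over all genes, among them Lamp1 at 99.5 against 549.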
